A study of Mus musculus with 8 samples.

Results

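Polycomb repressive complex 2 (PRC2) writes methylation on lysine 27 of histone H3 (H3K27), and the expression of its genes was examined in mESCs in which methylation of lysine 9 (H3K9) was reduced. The 10 genes were chosen by name and not by their values, though earlier results of these data were known. They were the alternative catalytic subunits *Ezh2* and *Ezh1*, the core subunits *Eed*, *Suz12*, *Rbbp4* and *Rbbp7*, and the accessory subunits *Jarid2*, *Aebp2*, *Mtf2* and *Phf19*. All 10 were found among the 24062 genes of the count tables, and all 10 passed the filter on low counts that left 15313 genes for testing. Poly(A) RNA-seq libraries came from 4 conditions of the mESC line #33-6, with 2 biological replicates each. WT mESCs were not treated. UNC0642-treated mESCs received 2 µM of UNC0642, an inhibitor of the H3K9 methyltransferases G9a and GLP, for 3 days. *Setdb1* KO mESCs received 800 nM 4-OHT for 5 days, which deletes the conditional allele of *Setdb1*, the gene of another H3K9 methyltransferase. Doubly treated mESCs, *Setdb1* KO and UNC0642 together, received 4-OHT and then 2 µM UNC0642 for 3 days, where the labels give 2 days of 4-OHT before the inhibitor and the paper's methods give 5 days in all. Every condition carried the conditional *Setdb1* allele, and the line is 1 clone, so that the replicates measured the spread between cultures of 1 clone.

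PRC2 holds EED, SUZ12 and the histone binding proteins RBBP4 or RBBP7 around EZH2 or EZH1, and it is known for keeping the genes of developmental regulators silent in mESCs by H3K27 trimethylation. EZH2 is the form of dividing cells and EZH1 that of resting cells. The accessory subunits split the complex into a form with a Polycomb-like protein such as MTF2 or PHF19 and a form with JARID2 and AEBP2, and both sets help the complex to reach CpG islands.

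The promoters of both catalytic genes, of *Rbbp7* and of *Ezhip* are shown because the comparisons below turn on them. *Ezhip* is no subunit but the gene of a protein that binds PRC2 and lowers its activity. Each window holds the 250 bases before the RefSeq transcription start on build GRCm38.p6, 5′ to 3′ on the strand of the gene, with CG dinucleotides in capitals. The windows lie at chr11:101226464-101226713 (minus strand) for *Ezh1*, chr6:47595031-47595280 (minus strand) for *Ezh2*, chrX:162760122-162760371 (plus strand) for *Rbbp7* and chrX:6083421-6083670 (minus strand) for *Ezhip*.
Ezh1: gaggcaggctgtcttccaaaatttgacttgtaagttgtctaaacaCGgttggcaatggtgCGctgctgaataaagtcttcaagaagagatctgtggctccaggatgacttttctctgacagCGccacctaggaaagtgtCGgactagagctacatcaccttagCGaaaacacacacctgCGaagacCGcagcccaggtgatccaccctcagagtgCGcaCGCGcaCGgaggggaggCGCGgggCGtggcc
Ezh2: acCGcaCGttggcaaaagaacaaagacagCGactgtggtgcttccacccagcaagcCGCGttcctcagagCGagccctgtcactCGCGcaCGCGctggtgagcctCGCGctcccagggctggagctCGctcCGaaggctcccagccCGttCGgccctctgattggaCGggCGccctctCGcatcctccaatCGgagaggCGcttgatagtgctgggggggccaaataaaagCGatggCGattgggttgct
Rbbp7: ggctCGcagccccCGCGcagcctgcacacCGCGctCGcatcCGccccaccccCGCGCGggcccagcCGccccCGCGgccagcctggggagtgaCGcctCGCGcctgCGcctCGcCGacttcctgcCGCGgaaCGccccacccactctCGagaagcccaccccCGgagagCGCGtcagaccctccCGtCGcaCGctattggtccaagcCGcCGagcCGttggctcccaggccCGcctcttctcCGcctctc
Ezhip: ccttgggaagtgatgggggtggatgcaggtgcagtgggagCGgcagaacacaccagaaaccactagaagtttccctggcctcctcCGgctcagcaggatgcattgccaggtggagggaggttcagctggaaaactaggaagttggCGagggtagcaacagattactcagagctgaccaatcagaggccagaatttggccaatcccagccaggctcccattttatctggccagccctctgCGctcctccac
The windows held 14 CG dinucleotides at *Ezh1*, 23 at *Ezh2*, 34 at *Rbbp7* and 4 at *Ezhip*, against a median of 6 over 32851 RefSeq windows of the same length. Their GC content was 55.2%, 63.6%, 76.4% and 57.2%, against a median of 52.4%. The 8-base words TTTCCCGC, TTTGGCGC, TTTCGCGC and TTTGCCGC, which are forms of the E2F motif, were searched on both strands and found at *Suz12* and *Phf19*, in 2 of the 14 windows of the 10 genes and in 1.86% of all windows.

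The libraries held between 11702590 and 26807807 counts, and every PRC2 gene had at least 127 counts in every library. *Setdb1* stood at 169 and 127 CPM (counts scaled by library size) in WT mESCs and at 130.5 and 86.4 in UNC0642-treated mESCs. It stood at 47.3 and 51.0 in *Setdb1* KO mESCs and at 61.1 and 34.1 in doubly treated mESCs, below every library without 4-OHT, and its average log2 change with *Setdb1* KO was -1.39 ± 0.31 (adjusted p = 0.037, edgeR). Markers of mESCs summed to between 4244 and 7152 CPM in all libraries, with all 10 detected, and 7 fibroblast markers to at most 20.6 CPM. Markers of cells like the 2-cell embryo moved with the conditions: 6 of 7 were detected, *Gm4340* was not, and the sum was 8.36 to 23.5 CPM in WT, 241 to 756 in UNC0642-treated, 133 to 353 in *Setdb1* KO and 547 to 1354 in doubly treated mESCs. All 5 markers of primed or mesoderm cells were detected, and their sum was 196 to 253 CPM in WT, 126 to 327 in UNC0642-treated, 410 to 731 in *Setdb1* KO and 281 to 452 in doubly treated mESCs. All 6 markers of primitive endoderm were detected, summing to 11.7 to 50.8 CPM in WT, 61.6 to 69.8 in UNC0642-treated, 12.2 to 20.9 in *Setdb1* KO and 19.5 to 21.7 in doubly treated mESCs. The share of counts on transposable elements also moved, from 2.77% to 5.46% without 4-OHT to between 9.22% and 17.1% with it. Their part in the values below was not tested. In bulk RNA, a change in the share of cells of a type cannot be told apart from a change in RNA per cell.

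Per kilobase of exon, *Suz12* was the most abundant PRC2 transcript in WT mESCs (111 ± 50.5 CPM per kb, SD, n = 2), followed by *Rbbp7* (99.9 ± 28.6), *Mtf2* (74.2 ± 21.9), *Jarid2* (64.8 ± 7.93), *Rbbp4* (55.6 ± 14.7), *Eed* (45.2 ± 5.32) and *Ezh2* (34.7 ± 17.7). The ranges of neighbours in this order overlapped down to *Ezh2*. *Aebp2* (14.0 ± 2.94 CPM per kb) lay below *Ezh2* and above *Phf19* (7.06 ± 4.24) without overlap, and *Phf19* overlapped with *Ezh1* (6.00 ± 3.03), the lowest. In doubly treated mESCs the order began with *Rbbp7* (186 ± 70.7 CPM per kb), which did not overlap with the next, *Mtf2* (120 ± 5.92). It ended with *Phf19* (3.37 ± 1.07) and *Ezh1* (2.98 ± 0.977), which overlapped. *Rbbp7* also came first in UNC0642-treated (113 ± 45.2 CPM per kb) and in *Setdb1* KO mESCs (140 ± 65.8), overlapping with the next gene in both.

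**Figure D1:**
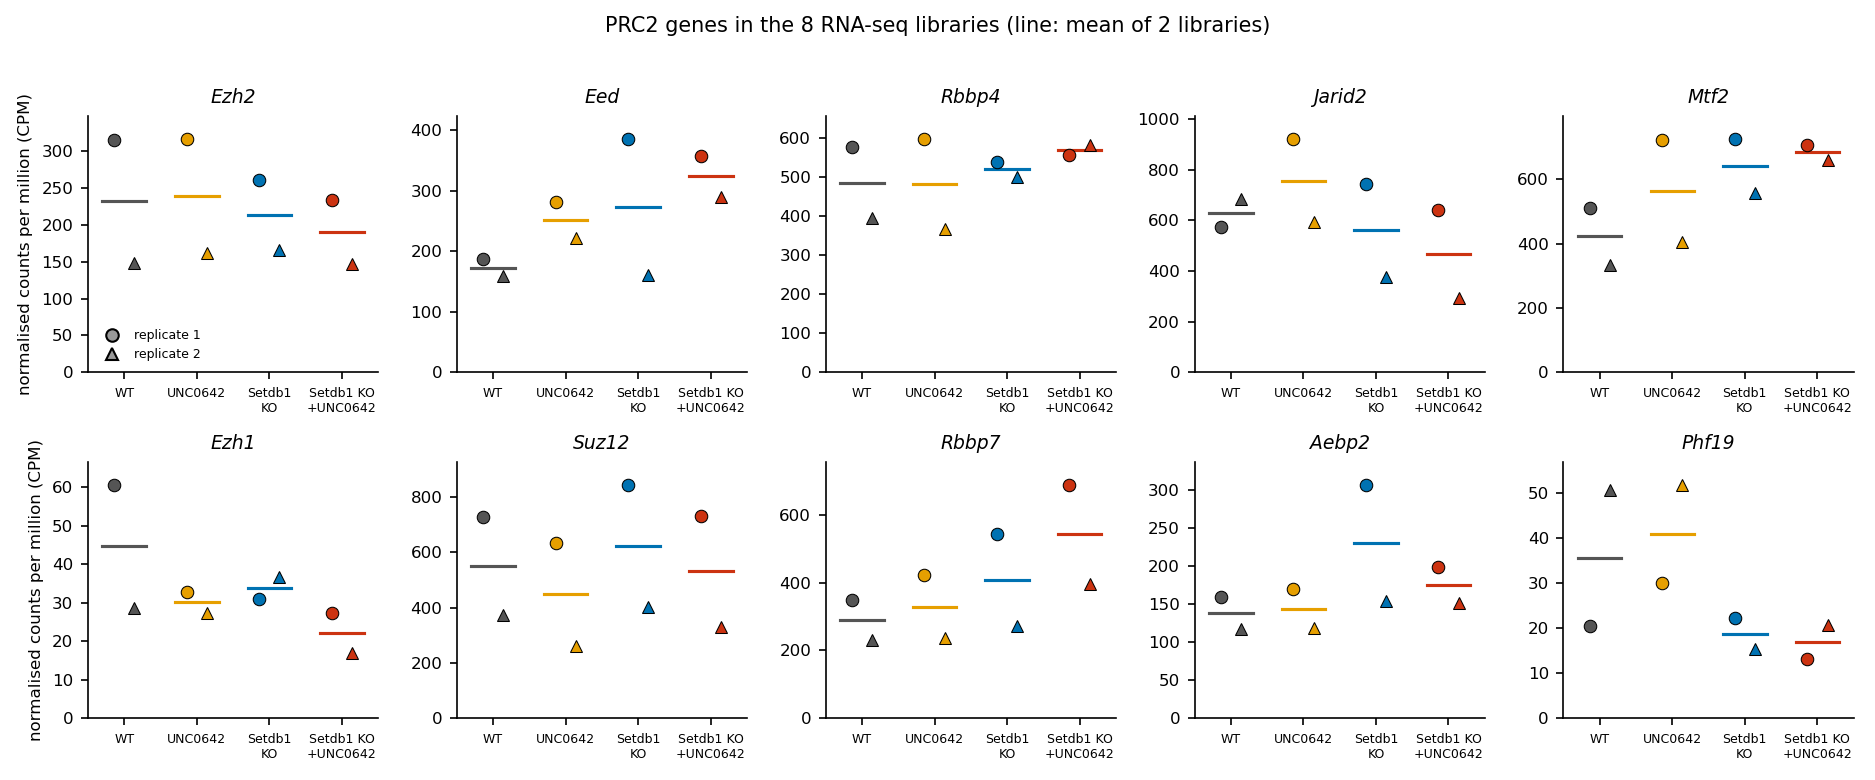
CPM of the 10 PRC2 genes (vertical axes from 0) in the 4 conditions. Circles are replicate 1, triangles replicate 2 and lines the means of 2 libraries. Replicate 1 lies above replicate 2 in all 4 conditions for 6 genes, and both libraries of doubly treated mESCs lie above both WT libraries for *Eed*, *Mtf2* and *Rbbp7* and below them for *Ezh1*.

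None of the 10 genes passed the test in any comparison when edgeR was fitted without a replicate term (adjusted p under 0.05 over 15313 genes and 932 transposable element subfamilies). Over all genes tested, edgeR called 0.0% with UNC0642, 0.888% with *Setdb1* KO and 3.62% with both against WT. At an unadjusted p under 0.05 none of the 10 passed against WT either, beside 3.41%, 7.58% and 16.9% of all genes. DESeq2 without the replicate term called 0 of the 10 in these comparisons, beside 0.619%, 2.70% and 7.67% of all genes. The samples carry replicate numbers 1 and 2, and the deviations of same-numbered libraries from their condition means were correlated across genes (r between 0.185 and 0.583 for 6 pairs of conditions). Values fitted with a term for the replicate number, called the block, are therefore given where they change a call. With the block, edgeR called *Rbbp7* alone, higher in doubly treated mESCs (1 of 10 genes, beside 8.09% of all genes called higher) and in the average effect of *Setdb1* KO over both inhibitor states (1 of 10, beside 6.64%). DESeq2 with the block called *Eed*, *Mtf2* and *Rbbp7* in doubly treated mESCs against WT (3 of 10, beside 19.5% of all genes), *Rbbp7* against UNC0642-treated mESCs (1 of 10, beside 7.06%) and *Phf19* and *Rbbp7* in the average effect of *Setdb1* KO (2 of 10, beside 14.7%). The absolute log2 fold changes of the 10 genes had a median of 0.23 in UNC0642-treated, 0.44 in *Setdb1* KO and 0.56 in doubly treated mESCs, beside 0.30, 0.38 and 0.58 over all genes tested.

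**Figure D2:**
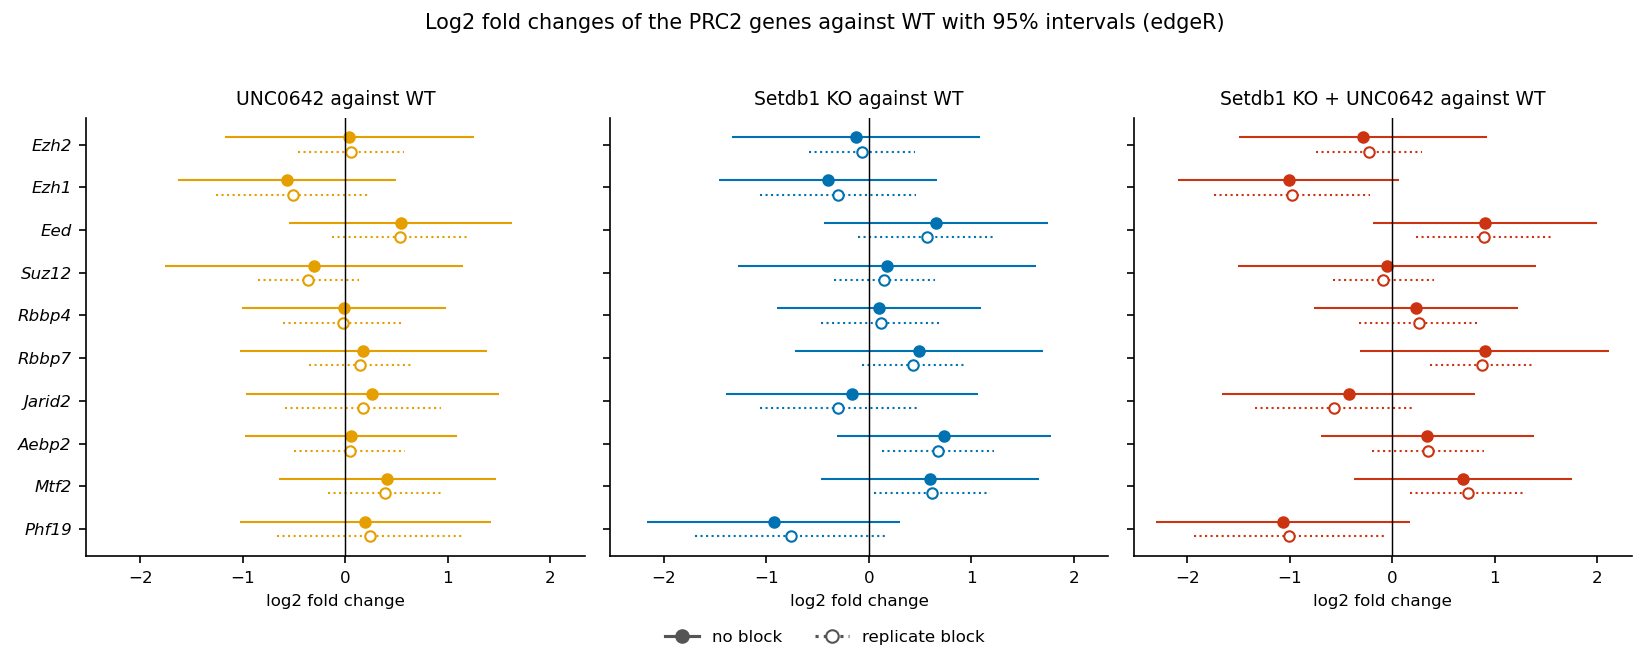
Log2 fold changes of the 10 PRC2 genes against WT (horizontal axis) with 95% intervals, in the edgeR fit without a block (filled points, solid lines) and with the replicate number as a block (open points, dotted lines). Without the block every interval includes 0. With it the intervals of *Rbbp7*, *Eed*, *Mtf2*, *Ezh1* and *Phf19* in doubly treated mESCs do not. Neither do those of *Aebp2* and *Mtf2* in *Setdb1* KO mESCs. The intervals are not adjusted for the number of genes, and no share over all genes is given for them. After adjustment the blocked fit called *Rbbp7* alone, in doubly treated mESCs, beside 8.09% of all genes called higher and 7.63% lower.

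*Ezh2* (chr6:47530139-47595341, minus strand, GRCm38), the main methyltransferase gene of the complex in dividing cells, differed less between conditions than between replicates. Its level in replicates 1 and 2 was 315 and 148 CPM in WT, 316 and 161 in UNC0642-treated, 260.1 and 165 in *Setdb1* KO and 233 and 147 in doubly treated mESCs. Within each condition replicate 1 lay above replicate 2 by more than any 2 conditions differed at the same replicate number. The log2 fold change against WT was 0.04 ± 0.54 (SE) with UNC0642, -0.12 ± 0.54 with *Setdb1* KO and -0.29 ± 0.54 with both, and the 95% interval of the last ran from 0.354 to 1.90 times the WT level. With the block the same comparison gave -0.23, and the interval from 0.597 to 1.22 times the WT level was narrower.

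*Ezh1* (chr11:101191115-101226463, minus strand), the catalytic subunit of resting cells, was lower in the mean of every treated condition. It stood at 60.6 and 28.7 CPM in WT mESCs, at 32.9 and 27.3 in UNC0642-treated, at 31.0 and 36.8 in *Setdb1* KO and at 27.3 and 17.0 in doubly treated mESCs. The doubly treated libraries lay below both WT libraries, and the WT libraries lay farther apart than the replicates of any other condition. The log2 fold change in doubly treated mESCs was -1.01 ± 0.48 (2.02-fold lower), which did not pass (adjusted p = 0.31, edgeR, and 0.0773 with the block). Among the 10 genes *Ezh1* alone was lower without overlap in this comparison, where 22.2% of all genes tested were.

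The balance of the catalytic genes was read as a ratio of levels per kilobase within a library, which does not depend on the scaling of libraries. *Ezh2* exceeded *Ezh1* 5.79 and 5.75 times in WT mESCs, 10.7 and 6.57 times with UNC0642, 9.35 and 5.00 times in *Setdb1* KO and 9.51 and 9.63 times in doubly treated mESCs. Relative to WT, the mean ratio of *Ezh1* to *Ezh2* was 1.66-fold lower in doubly treated mESCs and 1.45-fold lower with UNC0642 alone, with no overlap in either, and *Setdb1* KO overlapped with WT. The exact two-sided permutation p was 0.333 for both, the smallest that 2 libraries against 2 can give, and 0.5 after adjustment over the 9 ratio comparisons, so that no ratio could pass.

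*Eed* (chr7:89954654-89980983, minus strand) encodes the subunit that binds trimethylated H3K27 and stimulates the enzyme. Its level was 188 and 159 CPM in WT, 282 and 223 in UNC0642-treated, 385 and 161 in *Setdb1* KO and 358 and 290.0 in doubly treated mESCs. Both UNC0642-treated and both doubly treated libraries lay above both WT libraries, and *Setdb1* KO replicate 2 lay within the WT range. Among the 10 genes *Eed* was the only one to be higher without overlap with UNC0642 alone, where 13.1% of all genes tested were. In doubly treated mESCs the log2 fold change was 0.90 ± 0.49, with folds of 1.91 and 1.83 at replicate numbers 1 and 2. It did not pass (adjusted p = 0.382, edgeR, and 0.0681 with the block). An antisense gene, E230029C05Rik, overlaps *Eed* and shares 212 of its 3915 50-base words, and reads were counted with default parameters, the strand option not being named.

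*Suz12* (chr11:79993106-80034123, plus strand), which holds the core together and carries the accessory subunits, varied with the replicate number rather than with the condition. It stood at 728, 634, 843 and 731 CPM in the first replicates of WT, UNC0642-treated, *Setdb1* KO and doubly treated mESCs. The second replicates stood at 375, 261, 401.5 and 329.7 CPM in the same order. Every first replicate lay above every second replicate, and the log2 fold change in doubly treated mESCs was -0.06 ± 0.65.

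*Rbbp7* (chrX:162760402-162779092, plus strand) and *Rbbp4* (chr4:129307100-129335370, minus strand) encode closely related histone chaperones that also serve other chromatin complexes. *Rbbp7* was measured at 349.5 and 232 CPM in WT, 422 and 236 in UNC0642-treated, 543 and 272 in *Setdb1* KO and 688 and 397 in doubly treated mESCs. Both doubly treated libraries lay above both WT libraries, by 1.97-fold at replicate number 1 and 1.71-fold at replicate number 2. Its log2 fold change was 0.90 ± 0.54 without the block (adjusted p = 0.444, edgeR) and 0.87 ± 0.22 with it (adjusted p = 0.0305). The average effect of *Setdb1* KO was 0.60 ± 0.38 (adjusted p = 0.547) and, with the block, 0.58 ± 0.16 (adjusted p = 0.0434). Of the 8 blocked fits that left out 1 library, *Rbbp7* passed only without WT replicate 2 (1.03, adjusted p = 0.0319), and a correction for GC content in the blocked fit also ended the call (adjusted p = 0.0788). *Rbbp7* shares 11.2% of its 50-base words with other genes, mostly the pseudogene Gm6382, which had no line in the count tables, so that its count is uncertain to that extent.

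*Rbbp4* stood at 576 and 395 CPM in WT, 598 and 367 in UNC0642-treated, 539 and 500.1 in *Setdb1* KO and 558 and 582 in doubly treated mESCs. All treated means lay within the WT range, and the log2 fold change in doubly treated mESCs was 0.23 ± 0.44. Per kilobase, *Rbbp7* exceeded *Rbbp4* 1.82 and 1.76 times in WT and 3.70 and 2.05 times in doubly treated mESCs, a 1.54-fold higher mean ratio without overlap. With UNC0642 alone the ratio was 2.12 and 1.93, a 1.13-fold higher mean ratio that also did not overlap with WT. In *Setdb1* KO mESCs it was 3.02 and 1.63, on both sides of WT. *Rbbp4* shares 17.2% of its 50-base words with other genes, 750 of 1517 such words with the lincRNA Gm26722 on the opposite strand.

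*Mtf2* (chr5:108065674-108109004, plus strand), the Polycomb-like gene whose protein binds unmethylated CpG DNA, was measured at 511 and 335 CPM in WT and 720.4 and 404 in UNC0642-treated mESCs. It stood at 724 and 556 CPM in *Setdb1* KO and 707 and 659 in doubly treated mESCs. All 4 libraries of *Setdb1* KO mESCs, with or without inhibitor, lay above both WT libraries. *Mtf2* was the only one of the 10 genes to be higher without overlap in *Setdb1* KO mESCs, where 15.4% of all genes tested were, and *Eed*, *Mtf2* and *Rbbp7* were in doubly treated mESCs, where 19.8% were. The log2 fold change in the latter was 0.69 ± 0.47 (adjusted p = 0.511, edgeR, and 0.0761 with the block). A correction for GC content in the blocked edgeR fit lowered this change to 0.14 (adjusted p = 0.711). *Mtf2* overlaps *Tmed5* on the opposite strand and shares 5.56% of its 50-base words, nearly all with that gene.

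*Phf19* (chr2:34893757-34914026, minus strand), a second Polycomb-like gene, was the least abundant of the 10 per kilobase in *Setdb1* KO mESCs. It stood at 20.5 and 50.7 CPM in WT, 30.0 and 51.8 in UNC0642-treated, 22.2 and 15.3 in *Setdb1* KO and 13.2 and 20.8 in doubly treated mESCs. The groups overlapped through the low first WT replicate, and *Setdb1* KO replicate 1 and doubly treated replicate 2 lay above it. The average log2 effect of *Setdb1* KO was -1.09 ± 0.39, with an interval from -1.97 to -0.22, and was the largest of the 10. Its unadjusted p was 0.0197, the only one of the 10 under 0.05 in that comparison (14.0% of all genes), where edgeR called 0 of the 10 and 3.67% of all genes. It did not pass (adjusted p = 0.196, edgeR, and 0.055 with the block).

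*Jarid2* (chr13:44729474-44921643, plus strand) encodes a DNA binding protein that the complex itself methylates. It was measured at 575 and 684 CPM in WT, 922 and 593 in UNC0642-treated, 745 and 378 in *Setdb1* KO and 643 and 294 in doubly treated mESCs. Relative to WT the doubly treated libraries were 1.12-fold at replicate number 1 and 0.430-fold at replicate number 2, in opposite directions. The log2 fold change was -0.43 ± 0.55, and its interval from -1.66 to 0.81 held both. *Aebp2* (chr6:140622663-140678472, plus strand), which belongs to the same form of the complex, stood at 159 and 118 CPM in WT, 169 and 118 in UNC0642-treated, 306 and 153 in *Setdb1* KO and 199 and 151 in doubly treated mESCs. *Aebp2* in *Setdb1* KO mESCs differed from WT by 0.73 ± 0.46 on the log2 scale and did not pass (adjusted p = 0.837, edgeR, and 0.182 with the block), and *Setdb1* KO replicate 2 lay within the WT range.

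*Jarid2* and *Mtf2* mark the alternative forms of the complex, and in both *Setdb1* KO conditions theirs differed most from WT of the 3 ratios examined, while with UNC0642 alone it differed by 1.11-fold and overlapped with WT. *Jarid2* stood at 0.661 and 1.20 times *Mtf2* in WT and at 0.750 and 0.861 times in UNC0642-treated mESCs. It stood at 0.603 and 0.399 times in *Setdb1* KO and at 0.533 and 0.262 times in doubly treated mESCs. The 4 libraries of *Setdb1* KO mESCs lay below the 4 others, and the mean ratio was 1.81-fold below WT in *Setdb1* KO and 2.38-fold below WT in doubly treated mESCs. The exact permutation p was 0.333 for each, the smallest possible. The WT libraries themselves lay apart, at 0.661 and 1.20. Leaving out 1 library at a time, the log2 difference from WT ran from -1.29 to -0.43 in *Setdb1* KO mESCs. In doubly treated mESCs it ran from -1.77 to -0.74. The ratios were not corrected for GC content, which was 48.8% in the transcript of *Jarid2* and 38.2% in that of *Mtf2*. With a GC correction and the block, *Jarid2* changed by -0.57 and *Mtf2* by 0.14 on the log2 scale in doubly treated mESCs. Whether the order of the 3 ratios holds under that correction was not tested.

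**Figure D3:**
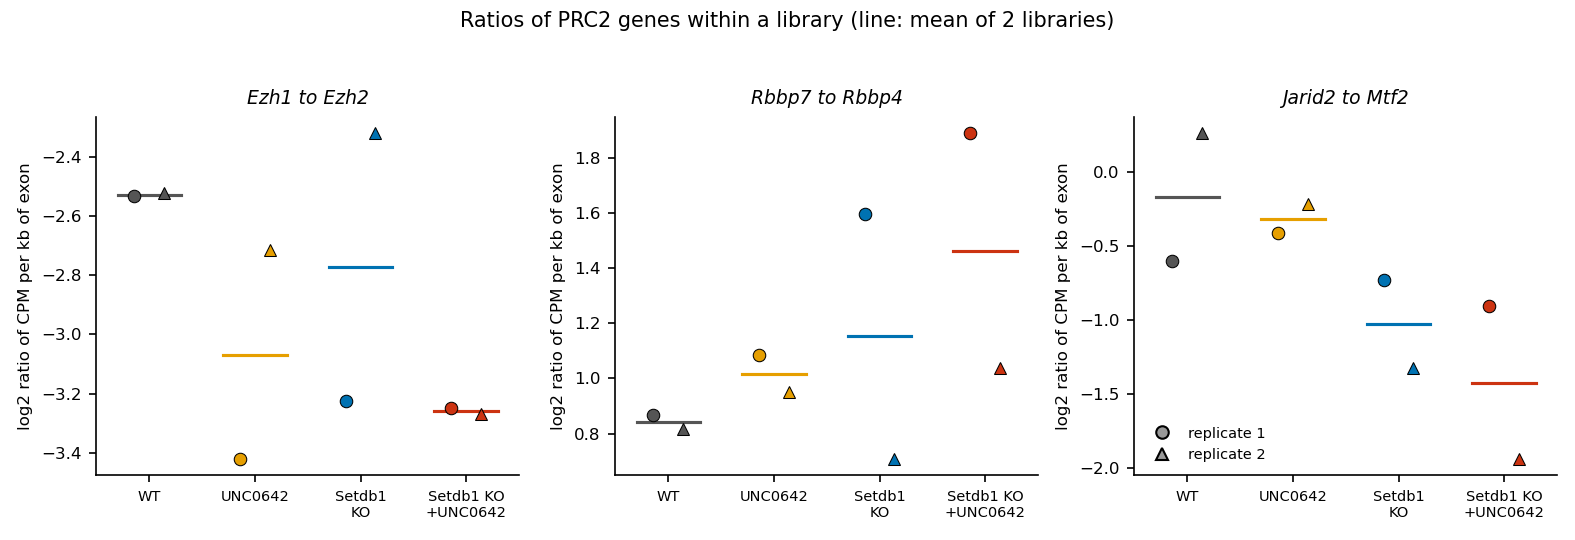
Log2 ratios of *Ezh1* to *Ezh2*, *Rbbp7* to *Rbbp4* and *Jarid2* to *Mtf2* (vertical axes, CPM per kb of exon) within each library of the 4 conditions. Circles are replicate 1, triangles replicate 2 and lines the means of 2 libraries. *Jarid2* to *Mtf2* lies lower in the 4 libraries of *Setdb1* KO mESCs than in the 4 others.

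The inhibitor was also compared within the deleted cells, where doubly treated and *Setdb1* KO mESCs gave 0 of 10 calls by edgeR and 0 unadjusted p under 0.05, beside 0.0% and 4.70% of all genes. Doubly treated against UNC0642-treated mESCs gave 0 calls of 10 by edgeR, beside 0.908% of all genes. *Phf19* alone had an unadjusted p under 0.05 in it (-1.26 ± 0.55, adjusted p = 0.537), beside 8.23% of all genes. The interaction of both treatments gave 0 calls among the 10 and 0.0% over all genes, with unadjusted p under 0.05 in 0 of the 10 and 0.777% of all genes. The average effect of UNC0642 gave 0 calls among the 10 beside 0.281% of all genes, with unadjusted p under 0.05 in 0 of the 10 and 7.44% of all genes. The intervals of the 10 genes against WT reached from -2.30 to 2.12 on the log2 scale without the block.

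The libraries of a condition also differed in the PRC2 genes, and in the same direction across conditions. In 6 of the 10 genes (*Ezh2*, *Eed*, *Suz12*, *Mtf2*, *Aebp2* and *Rbbp7*) replicate 1 lay above replicate 2 in all 4 conditions, where 21.5% of all genes tested did. The fitted difference of replicate 2 from replicate 1 passed for *Suz12* (-1.11 on the log2 scale, adjusted p = 0.00238, edgeR), *Ezh2* (-0.84, adjusted p = 0.00629), *Rbbp7* (-0.81, adjusted p = 0.00666) and *Aebp2* (-0.59, adjusted p = 0.0281), 4 of the 10 beside 34.2% of all genes. *Phf19* alone had the opposite sign (0.56, adjusted p = 0.165). The transcripts of the 10 genes held 38.2% to 53.9% GC, and 8 of 10 lay below the median of 49.9% over 14569 genes. Across these genes the replicate difference rose with GC content (Spearman's rho 0.663, Pearson's r 0.635), given as a description since genes share the same 8 libraries. *Phf19* had the highest GC content of the 10. The part of GC content in the replicate difference was not tested.

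**Figure D4:**
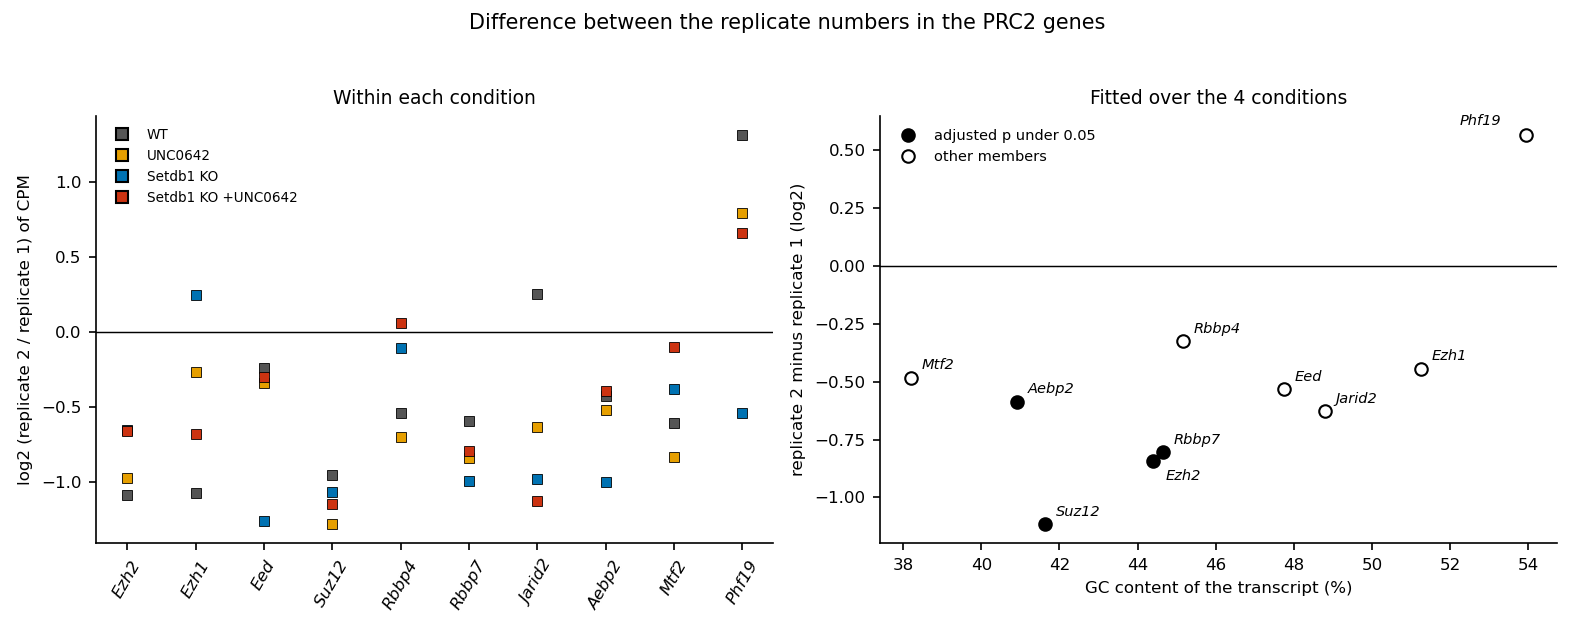
Difference between replicate numbers in the 10 PRC2 genes. Left, log2 of replicate 2 over replicate 1 (CPM) within each condition; right, the difference fitted over the 4 conditions against the GC content of the transcript (%), with filled points at an adjusted p under 0.05. *Suz12* lies lowest at -1.11, and *Phf19*, at 53.9% GC, is the only gene above 0.

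Of the 5 other genes of PRC2 tested (*Phf1*, *Epop*, *Lcor*, *Lcorl* and *Ezhip*), only *Ezhip* passed. Without the block it passed in the average effect of *Setdb1* KO, beside 3.67% of all genes. *Ezhip* (chrX:6081219-6083419, minus strand) was measured at 0.784 and 2.92 CPM in WT mESCs and at 1.32 and 3.78 in UNC0642-treated mESCs. It stood at 8.98 and 21.8 CPM in *Setdb1* KO and at 7.68 and 25.8 in doubly treated mESCs. The lowest library held 9 counts and the highest 703, and all 4 libraries of *Setdb1* KO mESCs lay above the 4 others, as for 5.44% of all genes tested and for 0 of the 10 PRC2 genes. At replicate numbers 1 and 2 the folds over WT were 11.5 and 7.46 in *Setdb1* KO and 9.80 and 8.84 in doubly treated mESCs. The average log2 effect of *Setdb1* KO was 2.86 ± 0.64 (7.27-fold, adjusted p = 0.0384, edgeR). With the block it was 2.91 ± 0.25 (adjusted p = 0.000178), and each condition against WT then passed as well, with 3.16 in *Setdb1* KO (adjusted p = 0.00201) and 3.17 in doubly treated mESCs (adjusted p = 0.00111), against adjusted p of 0.238 and 0.1 without the block. Without the block, 6 of the 8 fits that left out 1 library lost the call, and it held without *Setdb1* KO replicate 1 (adjusted p = 0.0444) or doubly treated replicate 1 (adjusted p = 0.0268). Scaling by total counts (adjusted p = 0.112) and thinning to the smallest library (adjusted p = 0.0607) lost it too. The log2 change with UNC0642 alone was 0.42. The promoter window of *Ezhip* shown above had the fewest CG dinucleotides of the 4 printed. *Lcorl*, a relative of the PRC2 partner *Lcor*, changed by -0.20 in doubly treated mESCs.

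PRC1, the complex that ubiquitinates histone H2A and binds the mark of PRC2, had 0 of 13 canonical genes called by edgeR in any condition against WT. An unadjusted p under 0.05 was found for 0 in UNC0642-treated, 1 in *Setdb1* KO and 2 in doubly treated mESCs. Over all genes tested the shares were 3.41%, 7.58% and 16.9%. DESeq2 called *Bmi1* alone, in doubly treated mESCs, beside 7.67% of all genes. *Bmi1*, like *Pcgf2* the gene of a PCGF subunit of canonical PRC1, stood at 17.5 and 12.3 CPM in WT and 31.4 and 22.8 in UNC0642-treated mESCs. It stood at 57.6 and 29.2 CPM in *Setdb1* KO and 66.0 and 50.9 in doubly treated mESCs. Every treated library lay above both WT libraries, and the folds over WT in the doubly treated mESCs were 3.77 and 4.12 at the 2 replicate numbers. The log2 fold change there was 1.97 ± 0.48 (adjusted p = 0.0545, edgeR). With the block *Bmi1* rose in *Setdb1* KO (1.49, adjusted p = 0.0148) and in doubly treated mESCs (1.98, adjusted p = 0.00218). It shares 16.7% of its 50-base words with other genes, mostly the pseudogene Gm5946. *Cbx2*, the subunit that compacts chromatin, stood at 18.3 and 33.3 CPM in WT and at 9.86 and 9.49 in doubly treated mESCs (-1.42 ± 0.47, adjusted p = 0.142, and -1.38 with the block, adjusted p = 0.0216). A correction for GC content in the blocked fit ended this call (-0.79, adjusted p = 0.0969).

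**Figure D5:**
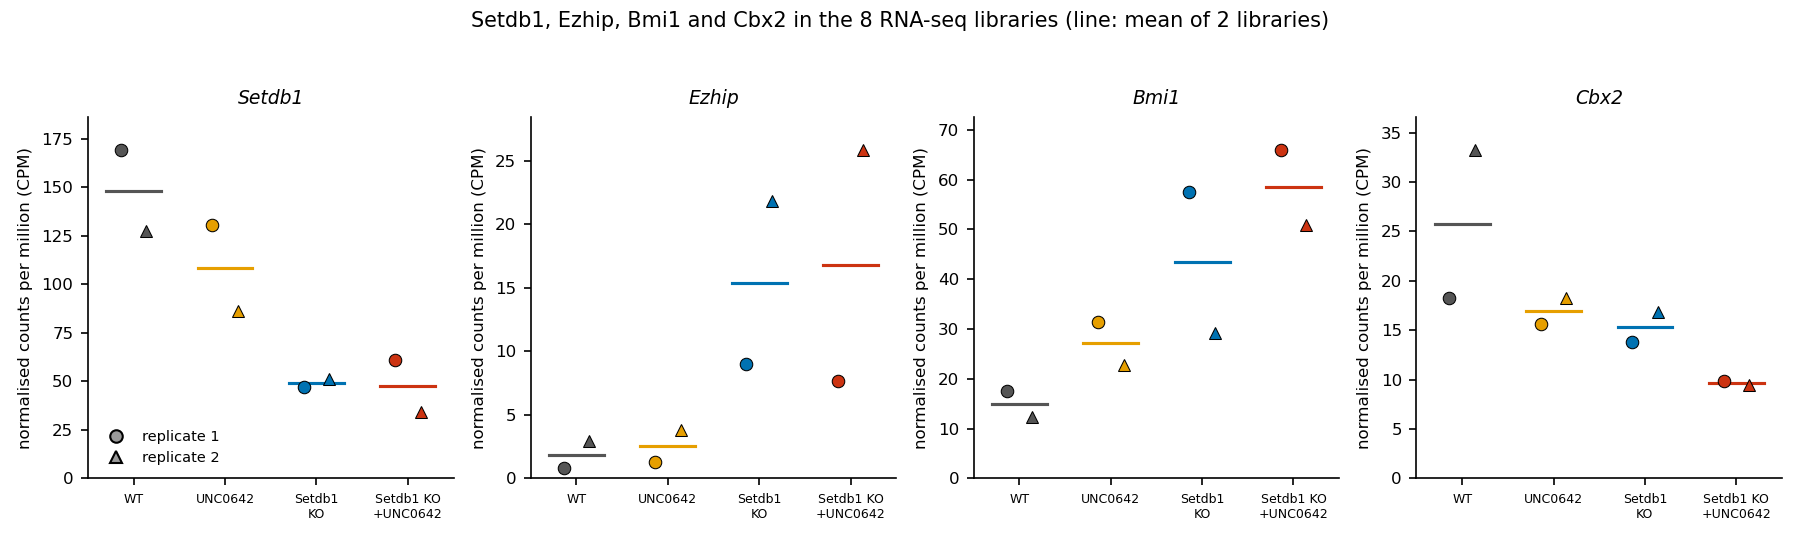
CPM (vertical axes from 0) of *Setdb1*, the PRC2 inhibitor gene *Ezhip* and the PRC1 genes *Bmi1* and *Cbx2* in the 4 conditions. Circles are replicate 1, triangles replicate 2 and lines the means of 2 libraries. *Ezhip* lies between 7.68 and 25.8 in the 4 libraries of *Setdb1* KO mESCs and at most at 3.78 in the 4 others.

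Of 11 genes of variant PRC1, 0 were called by edgeR or DESeq2. By edgeR 0 had an unadjusted p under 0.05 in any condition against WT, beside 3.41%, 7.58% and 16.9% of all genes. In the average effect of *Setdb1* KO 2 of the 11 did, beside 14.0% of all genes. With the block *Auts2*, a partner of PCGF3 and PCGF5, was lower in the average effect of *Setdb1* KO (-1.08, adjusted p = 0.0415), and the correction for GC content ended this call (-0.87, adjusted p = 0.0794). *Bcorl1*, a relative of the corepressor gene *Bcor*, changed by -1.14 in doubly treated mESCs (adjusted p = 0.379). Of the 8 tested genes of H3K27 demethylases, H2A deubiquitinases and H3K27 acetyltransferases, 0 were called by edgeR, with or without the block, or by DESeq2. In doubly treated mESCs 2 of the 8 had an unadjusted p under 0.05 by edgeR, beside 16.9% of all genes. *Kdm6b*, an H3K27 demethylase gene, changed by -1.16 (adjusted p = 0.255) and *Asxl3*, a gene of the H2A deubiquitinase complex, by 1.54 (adjusted p = 0.251).

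Of 32 genes known as PRC2 targets in mESCs, 18 stayed below 1 CPM and 26 below 10 CPM in every library, and 16 had enough counts to be tested. None was called by edgeR in any condition against WT. In doubly treated mESCs 3 of the 16 had an unadjusted p under 0.05, beside 16.9% of all genes tested. DESeq2 called *Olig2* there, beside 7.67% of all genes. The median log2 change of the 16 tested targets in doubly treated mESCs was -0.63, beside -0.06 over all genes tested. With the correction for GC content and the block it was -0.33, beside -0.01 over all genes. A gene could pass the filter through its counts in WT mESCs alone, which can lean such a median toward a fall. *Isl1*, 1 of the 16, held 20 and 25 counts in WT and 3 and 5 in doubly treated mESCs. No conclusion is drawn from the median. No target gene was called higher with or without the block. With the block, *Eomes* and *Olig2* were called lower in doubly treated mESCs, where 7.63% of all genes were, and the correction for GC content ended the call of *Eomes*. *Olig2*, a neural transcription factor gene, stood at 10.8 and 36.3 CPM in WT, 9.07 and 15.7 in UNC0642-treated, 6.60 and 9.30 in *Setdb1* KO and 3.32 and 4.38 in doubly treated mESCs (-2.61 ± 0.67, adjusted p = 0.0655, and -2.47 with the block, adjusted p = 0.00627). *Isl1*, a LIM homeobox gene, lay below 2 CPM in all libraries (-2.44, adjusted p = 0.184). Among 6 genes commonly used to scale qPCR 0 were called by edgeR or DESeq2 and 0 had an unadjusted p under 0.05, with *Tbp* at 0.56 and *Gapdh* at -0.67 in the same comparison.

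The genes whose log2 CPM followed *Ezh1* most closely over the 8 libraries were *Fads1*, *Soat1* and *Tfdp2*, with Pearson's r of 0.98 for each. Those most like *Ezh2* were *Ddx1*, *Ufl1* and *Dnali1*, with r of 0.99 for each, though *Dnali1* lay only at 0.605 to 2.30 CPM. Within the complex, *Ezh2* followed *Suz12* (r = 0.86) more closely than *Ezh1* (r = 0.63). Among all genes tested these held only rank 818 and rank 2765 by their r with *Ezh2*. The 8 points share conditions, replicate numbers and depth, and the values are descriptions.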

How the data were processed

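Poly(A) RNA-seq libraries of 8 samples (4 conditions, 2 replicates each) were analysed from the raw counts per gene and transposable element subfamily that the authors deposited. Per the study's methods and processing notes, reads were trimmed with Trim Galore 0.3.7, mapped with TopHat to GRCm38/mm10 and counted with TEtranscripts at its default parameters, the strand option not being named. The deposited counts covered 24062 genes and 1153 subfamilies, at 11702590 to 26807807 counts per library.

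Genes with low counts were removed with filterByExpr (minimum count 10, total 15), and libraries were scaled by TMM (factors 0.810 to 1.20). The quasi-likelihood test of edgeR 4.0.16 in R 4.3.3 modelled the 8 libraries together, a coefficient for each condition, leaving 4 residual degrees of freedom, and p-values were adjusted by Benjamini-Hochberg over genes and subfamilies. A call was an adjusted p under 0.05 with no fold threshold. CPM were computed on the TMM-scaled library sizes, and levels per kilobase on the summed exon length of GENCODE models. Alternatives were the replicate number as a block, DESeq2 1.42.0, RLE and total count scaling, no filter, thinning, a prior count of 2 in place of 0.125, coding length, genes alone and leaving out each library. A correction in 20 bins of GC content, DESeq2 with the block and leave-outs with the block were added after seeing the data. The scripts were tested on simulated data.

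The block follows the replicate numbers in the labels: deviations of same-numbered libraries correlated for all 6 pairs of conditions (r 0.185 to 0.583, median 0.499), and the read file names in the table headers changed style with the number. The numbers were therefore treated as pairing the libraries. Intervals are 95% intervals of the fit. P-values measure the spread between cultures of 1 clone, and 2 libraries a condition limit the precision.

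The 10 genes and all lists were chosen with earlier results of these data known. Beside the 10 genes and *Setdb1*, the text names the 2 genes of each list with the smallest edgeR p in doubly treated against WT mESCs, any called gene where 5 or fewer passed, and the 3 genes most correlated with *Ezh1* and with *Ezh2*. 1 of the called target genes is not reported here. *Ezhip* is listed in the tables as AU022751. AU015836 had been put in its list by mistake and was left out. Promoter windows came from RefSeq on GRCm38.p6, and all 10 genes matched. Shared sequence was measured as 50-base words of the transcripts found in other genes of the annotation. Python 3.11.15, pandas 2.3.3 and scipy 1.17.1 were used for tables and permutation tests.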

Additional observations from a re-analysis of the deposited data

How the results depend on the processing

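Over the 28 settings beside the one reported, the direction and the side of the threshold of single changes in the 10 genes held in 892 cases outside leave-outs, 8 passed and 30 turned in sign, and in leave-outs 1125 held, 15 passed and 140 turned. With the replicate block, which also raised the genes called from 0 to 27 (UNC0642), 136 to 509 (*Setdb1* KO) and 554 to 2407 (both) against WT, 1 of the 10 genes was called in doubly treated mESCs against WT and 1 in the average effect of *Setdb1* KO (*Rbbp7* in each). The targets called became 3 in both comparisons and 1 against UNC0642-treated mESCs. The block also added the calls of *Ezhip*, *Bmi1* and *Setdb1* in single conditions, of *Cbx2* and of *Auts2*, and no other call named here. DESeq2 with the block called 3, 1 and 2 of the 10 genes, as given above. No filter on counts gave 1 target called. Among fits that left out 1 library, only those with the block called any of the 10 genes. In the average effect of *Setdb1* KO such fits called *Jarid2*, *Phf19* and *Rbbp7*. *Phf19* was called lower against UNC0642-treated mESCs without either WT or either *Setdb1* KO replicate (-1.27 to -1.26). In doubly treated mESCs against WT, *Eed* (0.89 in each) was called higher without *Setdb1* KO replicate 1 or 2. *Phf19* (-0.98) was called lower there without *Setdb1* KO replicate 1. With the block and no WT replicate 1, *Jarid2* (-1.12) and *Phf19* (-1.45) were called lower, and with no WT replicate 2, *Ezh1* (-1.35) was called lower and *Rbbp7* (1.03) higher. The correction for GC content with the block called none of the 10 and ended the blocked calls of *Cbx2*, *Auts2* and *Eomes*. The cause of these changes was not tested.

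Of the log2 changes given here, 4 turned in sign outside leave-outs. In doubly treated mESCs *Lcorl* turned to 0.0234 with the block and 0.0272 by DESeq2 with the block, *Suz12* to 0.0239 when subfamilies were left out, and *Aebp2* to -0.0114 with the GC correction and -0.0102 with correction and block. *Ezh2* with UNC0642 turned to -0.0495 and -0.0403 in the last pair of settings. Over leave-outs, the changes in doubly treated mESCs ran from -0.71 to 0.35 for *Ezh2*, -0.74 to 0.49 for *Suz12*, -0.88 to 1.15 for *Lcorl*, -0.0029 to 0.52 for *Rbbp4* and -1.10 to 0.0295 for *Jarid2*. *Ezh2* ran from -0.57 to 0.52 with *Setdb1* KO and from -0.52 to 0.69 with UNC0642, and *Ezhip* with UNC0642 from -0.57 to 1.73. With 1 library left out and the block, sign turns gave *Ezh2* 0.0996 and 0.0593 with *Setdb1* KO (without WT or *Setdb1* KO replicate 1) and -0.0741 and -0.0267 with UNC0642 (without WT replicate 2 or UNC0642 replicate 1). In doubly treated mESCs without WT replicate 2, *Suz12* was at 0.0310 and *Jarid2* at 0.0736. *Lcorl* there was at 1.03 without WT replicate 1, 0.0188 and 0.0182 without UNC0642 replicate 1 or 2, 0.0921 and 0.0823 without *Setdb1* KO replicate 1 or 2 and 0.475 without doubly treated replicate 1. The log2 ratio of *Ezh1* to *Ezh2* in *Setdb1* KO ran from -0.70 to 0.21, *Rbbp7* to *Rbbp4* there from -0.13 to 0.76 and *Jarid2* to *Mtf2* with UNC0642 from -0.58 to 0.28. Scaling by total counts shifted the median of all genes by -0.17 in doubly treated mESCs against WT. All genes called ranged more widely than 1.5 times with several settings: DESeq2 called 1275 and, with the block, 3322 genes in doubly treated mESCs, against 554 by edgeR.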
